A study of Mus musculus with 6 samples.

Results

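Cytokines of the LIF and IL-6 family, their receptors, the transcription factor Stat3 and its feedback inhibitor Socs3 were followed in the mouse fibroblast line 3T3 after knockdown of the SAFB proteins. The members were 9 genes of the pathway out of 54532 genes in the files, chosen with earlier results of these data known. They were the ligand genes Lif, Il6, Il11 and Clcf1, the receptor genes Il6st, Osmr and Lifr, and Stat3 and Socs3. Poly(A)+ RNA was sequenced from cells that received siRNAs against Safb, Safb2 and Sltm together (SAFB KD, 3 libraries) and from cells that received a control siRNA (3 libraries). Per the study's methods the cells were a Flp-In 3T3 line, which carries a recombination site for transgenes, and were harvested days after siRNA transfection. The siRNAs lowered the 3 target RNAs without removing them, so SAFB KD is a partial loss at the RNA level. Protein was not measured in these libraries.

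Cytokines of this family are secreted proteins that act through gp130, the shared signalling receptor chain encoded by Il6st. IL-6 and IL-11 first bind their own receptor chains and then recruit gp130, while LIF signals through gp130 paired with the LIF receptor and mouse oncostatin M mainly through gp130 paired with the oncostatin M receptor. The receptor-bound JAK kinases phosphorylate STAT3, which enters the nucleus and switches on genes that include Socs3, whose product binds gp130 and the JAK kinases and shuts the signal down. Fibroblasts are known as producers of IL-6, LIF and IL-11 in inflamed or injured tissue.

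Total counts ranged from 33323307 to 53441129 reads per library, and 19452 genes with at least 10 reads over the 6 libraries were tested. Values are CPM unless stated, the reads of a gene relative to the TMM-scaled total of its library, and a gene was called where the adjusted p of the edgeR quasi-likelihood test was under 0.05. The targets were lower in every SAFB KD library: Safb averaged 46.6 ± 2.01 CPM in SAFB KD and 93.7 ± 3.08 in control (SD, n = 3 each), Safb2 30.01 ± 0.312 CPM in SAFB KD and 46.9 ± 1.79 in control, and Sltm 61.6 ± 0.515 CPM in SAFB KD and 100.2 ± 4.81 in control. Across all tested genes 8123 (41.8%) were called, 4198 (21.6%) higher and 3925 (20.2%) lower in SAFB KD, with a median log2 fold change of 0.010. Of listed fibroblast markers, 3 were higher and 7 lower of 12, with a summed level of 18067 to 18569 CPM in SAFB KD and 19318 to 21217 in control. Of 10 listed macrophage markers, 7 were tested and 2 rose, Cd14 and Cd68; the tested genes summed to 42.7 to 43.7 CPM in SAFB KD and 26.7 to 28.2 in control. Csf1r averaged 5.16 CPM in SAFB KD and 4.32 in control and Lyz2 2.18 CPM in SAFB KD and 2.65 in control, neither called by edgeR. Csf1r, Cx3cr1 and Itgam were higher in each SAFB KD library than in any control library, the last 2 at under 0.3 CPM and also not called, while Ptprc, Adgre1 and Fcgr1 had 0 to 2 reads in each library. Markers of endothelial cells (1 of 3 tested higher, summing to 9.38 to 10.4 CPM in SAFB KD and 7.89 to 8.39 in control), epithelial cells (0 of 2 called by edgeR, limma-voom or DESeq2, or at an unadjusted p under 0.05) and pluripotent cells (0 of 6 with enough reads to test) were at low levels. What part these markers have in the results was not tested. In bulk RNA, fewer cells of a type and less RNA per cell cannot be told apart.

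All 9 members had enough reads to be tested. In SAFB KD, 4 were higher (Lif, Il6, Socs3 and Il11, the last a borderline call), 4 were lower (Clcf1, Osmr, Lifr and Il6st), and Stat3 was not called. The 8 called of 9 stand beside 41.8% of all tested genes, and beside 66.1% of the 9329 genes whose mean reached 8.84 CPM, the mean of the lowest member. Groups did not overlap for any of the 9, against 49.0% of all tested genes and 70.4% of those 9329 genes. Because the members were chosen with earlier results of these data known, these shares are a description only. Of the 4 ligand members, Lif and Il6 were higher, Il11 was higher by a call that DESeq2 did not make, and Clcf1 was lower, while all 3 receptor members were lower. By glmTreat, which tests for a change beyond 2-fold, 0 members were called, 0 at an unadjusted p under 0.05 and 0 by DESeq2, against 245 of all tested genes (1.26%).

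**Figure D1:**
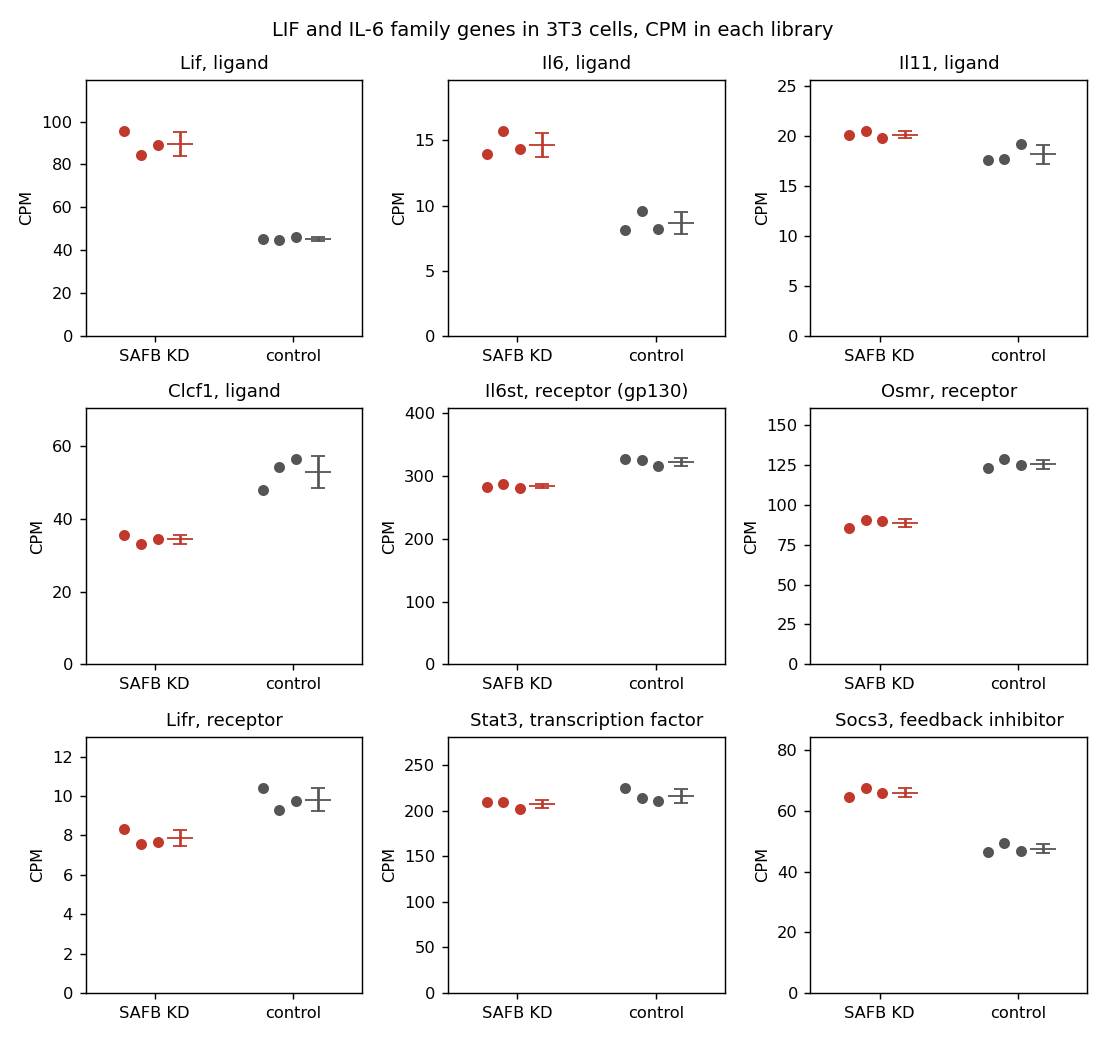
CPM of the 9 members in each library, with SAFB KD libraries on the left of each panel and control libraries on the right; points are libraries 1 to 3, and the bar beside them is the mean with the SD. Lif lay at 84.4 to 95.6 CPM in SAFB KD and 44.7 to 46.3 in control, while Stat3, with the smallest log2 fold change of the 9 in size, lay at 202.2 to 209.8 CPM in SAFB KD and 210.5 to 225.1 in control.

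The promoters of Lif, Il6 and Socs3, 3 members with firm calls that were higher, are shown here because they hold the letters of sites known for the inducers of these genes. Each run is 300 bases of RefSeq sequence (GRCm38.p6), 250 before and 50 after a start annotated by RefSeq, read 5′ to 3′ on the gene's strand. Capitals mark matches to AP-1 (TGANTCA), NF-kB (GGGNNTTTC), C/EBP (TTNNGNAA) or STAT (TTCNNNGAA) motifs searched on both strands.
Lif promoter, chr11:4257318-4257617, plus strand: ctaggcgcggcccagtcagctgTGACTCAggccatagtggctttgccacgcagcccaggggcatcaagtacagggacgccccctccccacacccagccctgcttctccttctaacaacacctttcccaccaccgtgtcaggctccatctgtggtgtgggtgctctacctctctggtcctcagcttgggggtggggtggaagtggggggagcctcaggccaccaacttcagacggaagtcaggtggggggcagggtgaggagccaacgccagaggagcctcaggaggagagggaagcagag
Il6 promoter, chr5:30012864-30013163, plus strand: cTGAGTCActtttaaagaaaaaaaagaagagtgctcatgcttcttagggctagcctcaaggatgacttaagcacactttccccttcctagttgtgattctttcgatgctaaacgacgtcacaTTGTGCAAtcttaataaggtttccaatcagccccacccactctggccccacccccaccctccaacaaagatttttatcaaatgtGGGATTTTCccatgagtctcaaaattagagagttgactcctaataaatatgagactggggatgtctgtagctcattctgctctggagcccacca
Socs3 promoter, chr11:117969317-117969616, minus strand: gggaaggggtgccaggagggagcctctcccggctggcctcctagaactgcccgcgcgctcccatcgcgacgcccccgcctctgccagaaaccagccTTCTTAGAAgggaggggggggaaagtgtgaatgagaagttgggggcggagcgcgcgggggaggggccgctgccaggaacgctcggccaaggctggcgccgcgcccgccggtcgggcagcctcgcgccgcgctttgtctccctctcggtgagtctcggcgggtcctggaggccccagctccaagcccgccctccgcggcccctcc
Lif held an AP-1 match (TGACTCA) beginning 228 bases before the start. Il6 held an AP-1 match (TGAGTCA) at 249 bases before the start, a C/EBP match (TTGTGCAA) at 128 and an NF-kB match (GGGATTTTC) at 44, with no base shared between them. Socs3 held a STAT match (TTCTTAGAA) at 154 bases before the start. The AP-1 letters occurred in 7.8% of 32851 RefSeq windows, the NF-kB letters in 4.4%, the C/EBP letters in 40.7% and the STAT letters in 8.3%. Among the other members, AP-1 letters also stood in the windows of Il11 (98 bases before the second of its starts) and Osmr (3 bases after its start), Stat3 held 2 C/EBP matches, and the windows of Il6st and Lifr held none of the 4 motifs. Clcf1 had no window in the table. The windows of Socs3, Osmr and Lifr lay inside the GENCODE M21 spans of these genes. The sequence before their outermost GENCODE starts was therefore not searched. Matches are a description of letters, and members in both directions had them.

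Lif rose most among the members. The gene, at chr11:4257557-4272514 on the plus strand (GRCm38), encodes leukaemia inhibitory factor, known for holding mouse embryonic stem cells in the pluripotent state. It had 95.6, 84.4 and 88.9 CPM in SAFB KD libraries 1 to 3, against 45.1, 44.7 and 46.3 CPM in control libraries 1 to 3. Every SAFB KD library was above every control library, with a gap wider than the spread within either group. The log2 fold change was 0.98 (SE 0.041, adjusted p = 7.72e-30, edgeR), and it stayed between 0.93 and 1.02 when each library was left out in turn. Among all called genes the median absolute log2 change was 0.32, and 12.5% changed more than Lif.

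Il6, the gene of interleukin-6 (chr5:30013114-30019981, plus strand), was the lowest of the 4 ligands and rose next most. SAFB KD libraries had 13.98, 15.7 and 14.3 CPM, against 8.13, 9.60 and 8.25 CPM in control libraries, from 277 to 751 reads per library. The lowest SAFB KD library was above the highest control library, and the log2 fold change was 0.76 (SE 0.080, adjusted p = 2.14e-12, edgeR).

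Il11, whose product is known for driving fibroblast activation (chr7:4772373-4782859, minus strand), was nearly level. It had 20.04, 20.5 and 19.8 CPM in SAFB KD libraries, against 17.5, 17.6 and 19.2 CPM in control libraries. Control 3 lay next to the SAFB KD libraries and apart from the other control libraries. Its log2 fold change of 0.15 (SE 0.062) had an adjusted p of 0.0431 with edgeR. The call was lost in 10 of 13 alternatives, among them leaving out any of the libraries except control 3.

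Clcf1 encodes cardiotrophin-like cytokine factor 1, which signals through the CNTF receptor complex, and it moved the other way from Lif and Il6. The gene lies at chr19:4214238-4223490 on the plus strand. SAFB KD libraries had 35.5, 33.1 and 34.5 CPM, against 47.9, 54.3 and 56.3 CPM in control libraries, and the groups did not overlap. This was a log2 fold change of -0.62 (SE 0.049, adjusted p = 3.00e-16, edgeR). In GENCODE M21 a model that is not in the files, AC109138.7, shares 311 exonic bases with Clcf1 on the same strand.

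To set genes of different length side by side, RPKM divides CPM by the kilobases of exons, merged over all annotated transcripts. Levels, shares and orders between genes depend on that length, which may differ from that of the RNA expressed. On this scale the ligand RNA of the members summed to 46.7, 44.4 and 44.9 in SAFB KD libraries, against 34.7, 36.9 and 38.0 in control libraries. The make-up of the ligand RNA shifted towards Lif. Lif made up 45.4% ± 1.69 of the summed ligand RPKM in SAFB KD and 28.5% ± 1.15 in control (SD, n = 3 each), whereas Clcf1 made up 19.9% ± 0.328 in SAFB KD and 37.9% ± 1.45 in control. Il6 made up 13.4% and Il11 21.3% in SAFB KD, against 9.76% and 23.8% in control. The ratio of Lif to Clcf1 CPM was 2.69, 2.55 and 2.57 in SAFB KD libraries, against 0.942, 0.823 and 0.822 in control libraries, so Lif exceeded Clcf1 in each SAFB KD library and was below it in each control library. The ratio of Lif to the sum of the other 3 ligands averaged 1.30 ± 0.0785 in SAFB KD and 0.571 ± 0.0365 in control on the CPM scale. For both ratios the 2-sided exact permutation test gave p = 0.1, the smallest that 3 against 3 libraries allow.

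**Figure D2:**
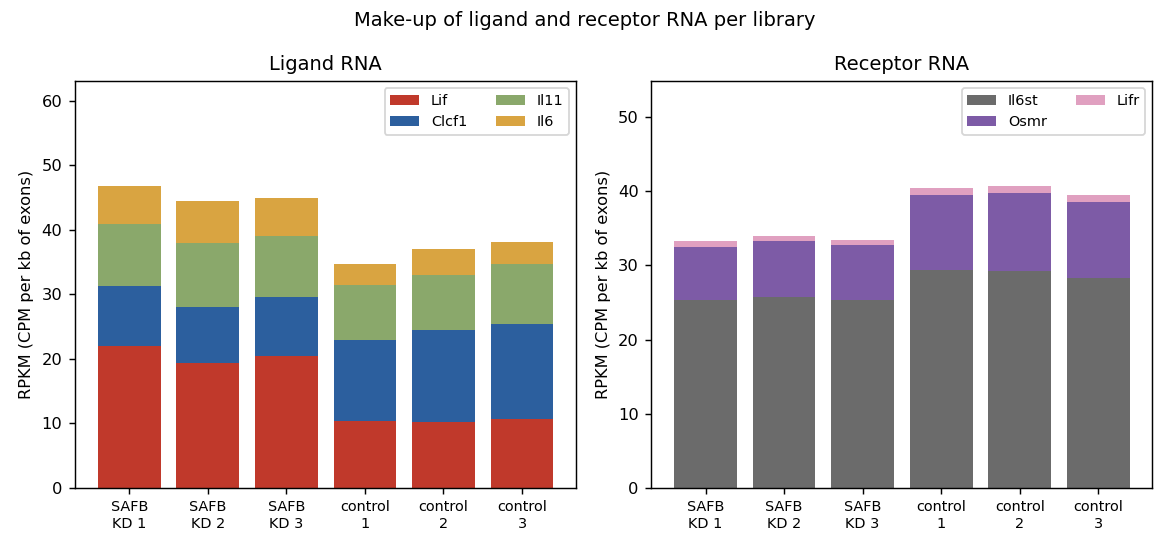
Stacked bars give RPKM (CPM per kilobase of exons) of the ligand genes on the left and the receptor genes on the right in each library, with SAFB KD 1 to 3 left of control 1 to 3. The summed ligand RPKM was 45.3 ± 1.22 in SAFB KD and 36.6 ± 1.68 in control, and the summed receptor RPKM 33.5 ± 0.371 in SAFB KD and 40.2 ± 0.602 in control (SD, n = 3 each).

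All 3 receptor members fell. Osmr, the signalling chain of the oncostatin M receptor, had the largest receptor change. It had 85.5, 90.2 and 89.5 CPM in SAFB KD libraries, against 122.9, 128.2 and 124.5 CPM in control libraries, and the groups lay far apart relative to their spread. Osmr had a log2 fold change of -0.50 (SE 0.034, adjusted p = 6.52e-20, edgeR). Osmr lies at chr15:6813577-6874969 on the minus strand, 215.6 kb from Lifr.

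Lifr (chr15:7090614-7197489, plus strand), the LIF receptor chain, was by far the lowest of the 9 per length. It had 8.33, 7.59 and 7.66 CPM in SAFB KD libraries, against 10.4, 9.28 and 9.76 CPM in control libraries. The groups did not overlap, though SAFB KD 1 and control 2 were less than 1 CPM apart. Lifr had a log2 fold change of -0.33 (SE 0.088, adjusted p = 0.00160, edgeR). The ratio of Osmr to Lifr was 11.3 ± 0.879 in SAFB KD and 12.8 ± 1.01 in control (CPM, exact permutation p = 0.2), and the ratios of the groups overlapped. The smallest p this test can give here is 0.1, so it cannot decide whether the neighbouring genes fell by different amounts.

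Il6st, the gp130 gene (chr13:112464070-112510086, plus strand), had the highest level per length of the 9 in both groups. It had 281.9, 286.3 and 281.0 CPM in SAFB KD libraries, against 325.7, 324.2 and 314.6 CPM in control libraries. The groups were apart, by a smaller proportion than for Osmr. Il6st had a log2 fold change of -0.18 (SE 0.029, adjusted p = 2.52e-07, edgeR). Osmr and Lifr together stood at 0.333, 0.342 and 0.346 of Il6st CPM in SAFB KD libraries and at 0.409, 0.424 and 0.427 in control libraries (exact permutation p = 0.1, the smallest possible). In all, 4 ratios between members were compared, and with 3 libraries a group none could pass 0.05, before or after adjustment.

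Stat3 (chr11:100885098-100939540, minus strand), the transcription factor downstream of gp130, had 209.8, 209.4 and 202.2 CPM in SAFB KD libraries, against 225.1, 213.8 and 210.5 CPM in control libraries. The groups were separated by less than the spread within either of them. Its log2 fold change of -0.065 (SE 0.031) had an adjusted p of 0.0871 with edgeR and was not called. It was called in 2 of 13 alternatives, with the stricter filterByExpr filter (adjusted p = 0.0397, edgeR) and without control 3 (-0.098, adjusted p = 0.00928, edgeR). These values are RNA levels, and phosphorylation of STAT3 was not measured.

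Socs3 (chr11:117966079-117970047, minus strand), the feedback inhibitor of gp130 signalling, rose in SAFB KD. It had 64.5, 67.6 and 66.0 CPM in SAFB KD libraries, against 46.5, 49.4 and 46.9 CPM in control libraries, and the groups lay well apart. The log2 fold change was 0.47 (SE 0.041, adjusted p = 1.90e-15, edgeR).

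Per length, the order of the members differed between the groups. In SAFB KD it ran Il6st (25.5 RPKM), Socs3 (22.8), Stat3 (21.7), Lif (20.6), Il11 (9.65), Clcf1 (9.03), Osmr (7.30), Il6 (6.04) and Lifr (0.729), and the levels of Stat3 and Lif overlapped. In control it ran Il6st (29.0 RPKM), Stat3 (22.7), Socs3 (16.5), Clcf1 (13.9), Lif (10.4), Osmr (10.3), Il11 (8.71), Il6 (3.57) and Lifr (0.911), and the levels of Lif and Osmr overlapped. All other neighbours in either order were apart in their libraries. By RPKM, Lif therefore stood beside Stat3 in SAFB KD and beside Osmr in control.

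**Figure D3:**
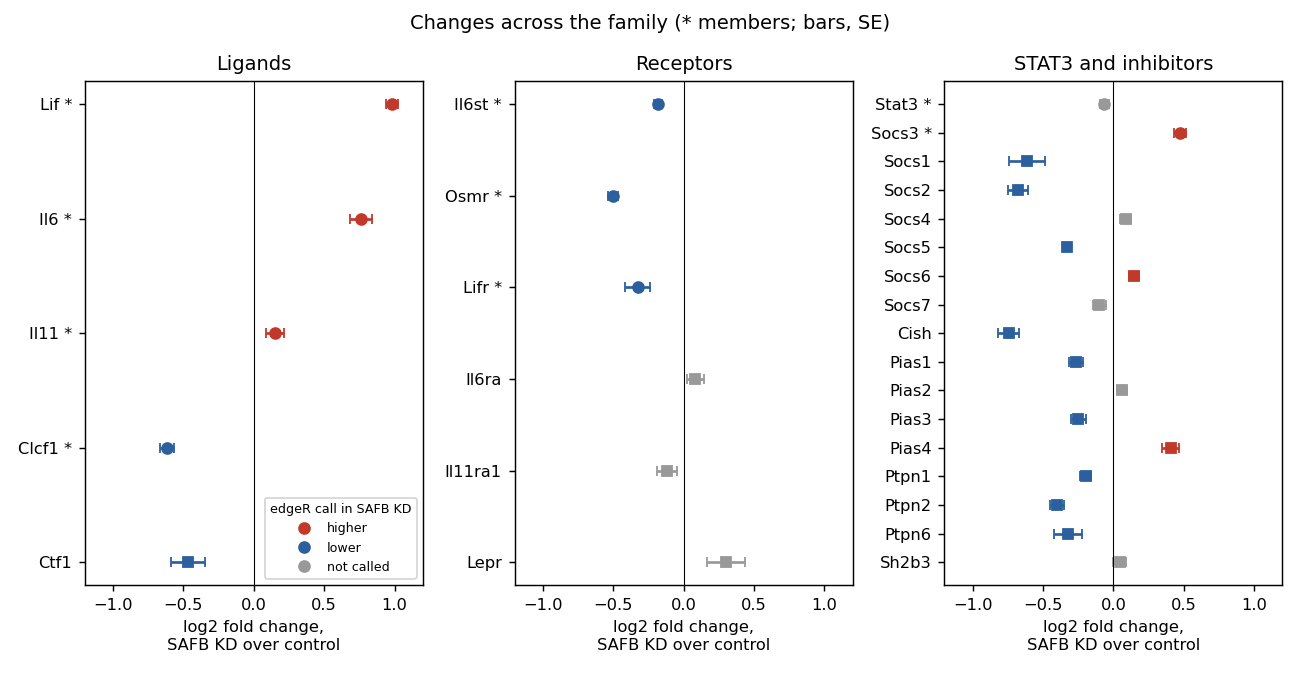
Log2 fold changes of SAFB KD over control for ligands, receptors, and STAT3 with inhibitors of the pathway, for members (circles, starred) and for other tested family genes that averaged 1 CPM or more in a group (squares, 1 of them not drawn); bars are SE and colours give the edgeR call. Lif, Il6 and Socs3 stand right of 0, the receptor members left of it, and most inhibitors other than Socs3 left of 0.

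The rest of the ligand family was thin in these cells. Of 10 other ligand and partner genes, 4 were tested, 0 were higher (0 at an unadjusted p under 0.05, and 0 by DESeq2 and limma-voom) and 2 were lower, with a median log2 fold change of -0.089 against 0.010 over all tested genes. Of all tested genes, 21.6% were higher and 20.2% lower. Ctf1, the gene of cardiotrophin-1, averaged 3.59 CPM in SAFB KD and 5.0 in control (log2 fold change -0.47, adjusted p = 0.00119, edgeR). Cntf (0.637 CPM in SAFB KD and 0.519 in control) and Csf3 (0.062 CPM in SAFB KD and 0.060 in control) were not called, with adjusted p of 0.465 and 0.873 by edgeR. Osm, the gene of oncostatin M that lies 16.5 kb from Lif, had 0 reads in all 6 libraries.

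Receptor chains outside the members were not called by edgeR in any direction. Of 11 listed, 6 were tested, with 0 higher and 0 lower by edgeR, DESeq2 and limma-voom, 1 higher at an unadjusted p under 0.05 (Lepr), and a median log2 fold change of 0.19. By edgeR 41.8% of all tested genes were called. Il6ra, the IL-6 binding chain, averaged 23.2 ± 1.48 CPM in SAFB KD and 21.9 ± 0.640 in control (SD, n = 3 each), and its groups overlapped (adjusted p = 0.270, edgeR). Il11ra1, the IL-11 binding chain, averaged 13.2 CPM in SAFB KD and 14.3 in control (adjusted p = 0.191, edgeR). Lepr, the leptin receptor, averaged 4.11 CPM in SAFB KD and 3.29 in control (log2 fold change 0.30, adjusted p = 0.0724, edgeR), and was called without control 1 (adjusted p = 0.0265) or SAFB KD 3 (0.0499) in the same edgeR test. Il27ra (adjusted p = 0.115, and 0.0429 without SAFB KD 2), Il12rb1 (0.737) and the listed partner cytokine Il23a (0.581) were all under 1.1 CPM in each library and not called by edgeR. Cntfr, through which Clcf1 signals, had 0 to 3 reads per library, and Il31ra, which lies 9.8 kb from Il6st, had 0 to 4.

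Of 16 other negative regulators 15 were tested, 2 rose and 9 fell, and the median log2 fold change was -0.25 against 0.010 over all tested genes. Over all tested genes 21.6% were higher and 20.2% lower, or 36.1% and 30% of those whose mean reached 8.84 CPM. Cish and Socs2, best known as STAT5-induced inhibitors, fell to 9.14 ± 0.338 and 10.8 ± 0.377 CPM in SAFB KD, against 15.2 ± 0.725 and 17.3 ± 0.820 CPM in control (SD, n = 3 each; log2 fold changes -0.74 and -0.68, adjusted p = 7.57e-13 and 1.89e-12, edgeR). Socs5 averaged 127 ± 0.535 CPM in SAFB KD and 160 ± 0.772 in control (-0.33, adjusted p = 5.09e-14, edgeR), and Ptpn2, a phosphatase that acts on JAK kinases and STATs, 35.0 CPM in SAFB KD and 46.2 in control (-0.40, adjusted p = 1.29e-10, edgeR). Socs1, which like Socs3 inhibits JAK kinases directly and was singled out after its value was seen, also fell (-0.61, adjusted p = 5.91e-05, edgeR). The 2 that rose were Pias4 (0.41) and Socs6 (0.15), likewise named after their values were seen.

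Among kinases, other STATs and adaptors, 15 of 16 were tested, 5 rose and 3 fell, with a median log2 fold change of -0.039. These counts stand beside 21.6% higher and 20.2% lower over all tested genes, or 36.1% and 30% of those whose mean reached 8.84 CPM. The shares apply to the shedding genes below as well. Jak1, the main kinase of gp130, averaged 483.9 CPM in SAFB KD and 435.2 in control (0.15, adjusted p = 6.13e-06, edgeR), and the adaptor gene Sos1 99.6 CPM in SAFB KD and 86.8 in control (0.20, adjusted p = 3.39e-06, edgeR). Stat5b fell to 39.2 CPM in SAFB KD, against 52.7 CPM in control (-0.43, adjusted p = 1.34e-12, edgeR). Stat5a overlaps Stat3 by 72 bases on the opposite strand and was not called. Of 4 shedding genes, which release receptors and cytokines from the cell surface, Adam17 (0.37) and Rhbdf2 (0.51), a partner in Adam17 maturation, rose, and 0 fell by edgeR, by DESeq2 or at an unadjusted p under 0.05.

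Of 28 listed STAT3 target genes, 27 were tested, 17 rose, 3 fell and 7 were not called, and the median log2 fold change was 0.28 against 0.010 over all tested genes. Over all tested genes 21.6% were higher and 20.2% lower, and among genes whose mean reached 8.84 CPM 36.1% were higher and 30% lower. The list was also drawn up with earlier results of these data known, so the shares only describe it. The smallest adjusted p belonged to Hif1a, the hypoxia factor, with 570.6, 578.2 and 584.7 CPM in SAFB KD libraries, against 346.3, 345.6 and 353.7 CPM in control libraries (0.73, adjusted p = 3.34e-31, edgeR). Ier3, an early response gene, averaged 177 ± 11.6 CPM in SAFB KD and 89.7 ± 3.44 in control (0.98, adjusted p = 3.50e-25, edgeR). Myc, the growth regulator, averaged 188 ± 10.4 CPM in SAFB KD and 100.4 ± 6.24 in control (0.90, adjusted p = 3.53e-19, edgeR), and Vegfa, the angiogenic factor, 374 ± 3.43 CPM in SAFB KD and 263 ± 1.08 in control (0.51, adjusted p = 2.62e-23, edgeR). The 3 that fell were Fos (-0.54), Trib1 (-0.32) and Tnfrsf1a (-0.088), named after their values were seen. The call of Tnfrsf1a was lost with no filter, and without SAFB KD 2, SAFB KD 3 or control 1. These genes answer to many other inputs than STAT3, and their dependence on it was not tested.

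**Figure D4:**
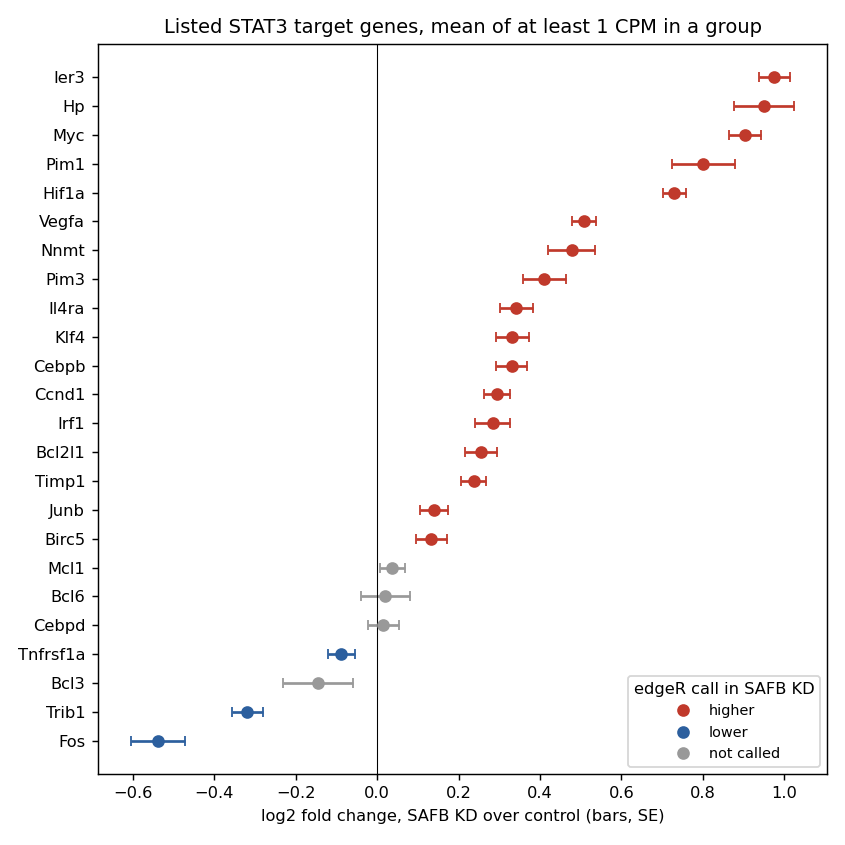
Log2 fold change of SAFB KD over control, with SE, for the 24 listed STAT3 target genes that averaged 1 CPM or more in a group, ordered by value and coloured by the edgeR call. Ier3 is at the top with 0.98 and Fos at the bottom with -0.54.

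Genes tied to the induction of Il6 and Lif, or binding their RNA, moved in both directions. Of 20 listed genes of NF-kB, AP-1 and C/EBP signalling 17 were tested, 9 rose and 5 fell, with a median log2 fold change of 0.15. Among the 5, Relb (-0.18, adjusted p = 0.0439, edgeR), named after its value was seen, was a borderline call. It was lost with DESeq2, with no filter, and without SAFB KD 1, SAFB KD 3, control 2 or control 3. The list holds inhibitors as well as activators, and what each did to Il6 or Lif was not tested. The counts here and of the binders below stand beside 21.6% higher and 20.2% lower over all tested genes. Among those whose mean reached 8.84 CPM the shares were 36.1% and 30%. Atf3, a stress-induced AP-1 family factor, was the 1 gene of the list called beyond 2-fold, with 9.66, 8.54 and 8.60 CPM in SAFB KD libraries, against 2.74, 2.88 and 2.65 CPM in control libraries (1.69, adjusted p = 3.62e-20, edgeR). Il1r1, the IL-1 receptor, fell (94.3 CPM in SAFB KD and 134.7 in control, -0.51, adjusted p = 1.54e-20, edgeR), while Il1rl1 (0.34), the IL-33 receptor, and Cebpg (0.36) rose. Tnf and Il1b were not tested for want of reads. Of 13 binders of cytokine mRNA 2 rose and 5 fell, with a median of -0.058. Zfp36l1 and Zfp36l2, which bind AU-rich elements and promote decay of such RNAs, fell to 213 and 295 CPM in SAFB KD, against 289 and 387 CPM in control (-0.44 and -0.39, adjusted p = 2.83e-19 and 2.74e-18, edgeR). Arid5a, which is known to stabilise Il6 mRNA, rose to 25.2 CPM in SAFB KD, against 16.0 CPM in control (0.65, adjusted p = 6.42e-14, edgeR), and Tia1 fell (-0.29). The other gene that rose, Zc3h12a (0.20, adjusted p = 0.048, edgeR), lost its call in most alternatives, including without any library except control 1.

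The 3 ligand RNAs that hold the longer AU-rich motif TTATTTATT after the stop codon are shown by 30 bases each, in GENCODE M21 transcripts, with the motif in capitals.
Lif: cctTTATTTATTatttaaaacttcaaacct
Il11: atcTTATTTATTTATTTATTttggtacttg
Clcf1: tatTTATTTATTtggagatgTTATTTATTa
The motif occurred 2 times in Lif, 5 in Il11 and 2 in Clcf1, 0 times in the other 6 members, and at least once in 7.2% of 20985 coding genes. The shorter ATTTA occurred 7 times in Lif, 6 in Il6, 10 in Il11, 4 in Clcf1, 9 in Il6st, 4 in Osmr, 11 in Lifr, 2 in Stat3 and 4 in Socs3. Since longer stretches hold more such letters, the number per kilobase was also taken, and it was 2.20 in Lif, 14.1 in Il6, 8.38 in Il11, 4.34 in Clcf1, 1.595 in Il6st, 2.23 in Osmr, 1.74 in Lifr, 1.06 in Stat3 and 2.71 in Socs3, against a median of 1.18 over the coding genes. The 3 RNAs with the longer motif thus included one that rose, one that fell and one with a borderline change.

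Profiles most like those of 3 members were sought among the 12103 genes that averaged 1 CPM or more, by the root mean square difference in log2 CPM over 6 libraries after centring each gene on its mean. For Lif these were Ptgs2, the inducible prostaglandin synthase (0.0448), Ier3 (0.0481) and the noncoding Ptgs2os2 (0.0521). Ptgs2 had 2075, 2031 and 1999 CPM in SAFB KD libraries, against 1028, 1015 and 1036 CPM in control libraries. For Osmr these were Cask (0.0171), Vps13b (0.0177) and Efemp1 (0.0200), and for Socs3 they were Oxsr1 (0.0228), Ripk2 (0.0233) and Dnaja3 (0.0234).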

How the data were processed

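Poly(A)+ RNA of 6 libraries of 3T3 cells was analysed, 3 SAFB KD and 3 control, grouped by the sample titles; the series text calls the replicates biological. The authors aligned reads to GRCm38 with STAR 2.7.9a and deposited raw counts per gene, whole numbers and 1 file per library; mm10 and deepTools 3.5.1 also appear in the processing notes. The study's methods describe reverse-stranded gene counts, and that the deposited column holds these was inferred. Such counting leaves out reads that overlap more than 1 gene on the same strand or align to several places.

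Of 54532 genes, 26546 had no read. In all, 54409 identifiers matched GENCODE M21, which gave coordinates and exon lengths, and 123 did not. Symbols came from a separate list of gene names. Genes with under 10 reads over all libraries were removed (35080), leaving 19452. Depth was 33323307 to 53441129 counts, with a biological coefficient of variation of 3.49%. Groups were tested by the edgeR quasi-likelihood method (edgeR 4.0.16, R 4.3.3, TMM, no covariate), with Benjamini-Hochberg adjustment over all tested genes and a 2-sided threshold of 0.05, and with glmTreat at a log2 threshold of 1, since the study tested against that fold. The SE is the log2 fold change over the root of the F statistic. Alternatives were RLE and upper quartile scaling, no filter, filterByExpr, DESeq2 1.42.0, limma-voom (limma 3.58.1), a replicate block and leaving out each library. The fit was checked on simulated counts. CPM use TMM-scaled totals, and RPKM divide CPM by kilobases of merged exons.

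The members, gene lists and tests were chosen with earlier results of these data known. Named were all members, the targets, every tested gene of the other ligand and receptor lists, up to 4 genes of each further list with the smallest adjusted p, and the 3 most similar profiles for Lif, Osmr and Socs3; some genes this rule names are not reported here, though the counts include them. The AU-rich counts, the Lif to Clcf1 and receptor to Il6st ratios, the order of levels and the share called among genes at the members' level were added after seeing the data. Promoters are RefSeq windows, found for 8 of 9 members.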

Additional observations from a re-analysis of the deposited data

How the results depend on the processing

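Of 438 recomputed values, 407 were scored as unchanged, 23 as weaker, 8 as stronger and 0 as reversed. A fold change was unchanged if it kept its direction and its side of the threshold. Ratios were unchanged if they moved by less than their spread, and counts if they stayed near the reported count. A small loss could thus pass as unchanged, as with 3 members higher, not 4, under DESeq2. Lif, Il6, Clcf1, Il6st, Osmr, Lifr, Socs3 and the 3 targets were called in 13 of 13 alternatives. The log2 fold change of Il11 lost its call with RLE (0.14, adjusted p = 0.0584) and upper quartile scaling (0.15, 0.0511), no filter (0.16, 0.0554), DESeq2 (0.14, 0.106) and the replicate block (0.15, 0.0507, edgeR), and ran from 0.12 to 0.18 when each library was left out. Stat3 was called with filterByExpr (-0.075) and ran from -0.098 to -0.042 with each library left out, called without control 3. Of the other receptors, 1 was called higher under the replicate block (Lepr) and 0 to 1 with a library left out. With a library left out, kinases and adaptors called lower were 2 to 5 (5 without control 3) and shedding genes called lower 0 to 1 (Adam10 without control 3). Binders called higher were 1, not 2, under RLE, upper quartile, no filter, filterByExpr, DESeq2 and limma-voom, and 1 to 2 with a library left out, as Zc3h12a lost its call. Beyond 2-fold, DESeq2 called 76 genes higher and 55 lower, against 140 and 105 by glmTreat. Same-numbered libraries showed no strong shared deviation (correlations of 0.053, 0.015 and -0.001). With 3 libraries a group this cannot exclude that they were handled together. The replicate block called 4192 genes higher and 3926 lower. The causes were not tested. Lifr and Il6 had the fewest reads of the members, and depth limits the tests of Cntf, Csf3, Il27ra and Il23a.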
